A study of Mus musculus with 24 samples.

Results

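Transcription outside annotated genes was examined in RNA depleted of ribosomal RNA from the mouse embryonic stem cell line CCE, after differentiation, and from mouse fetal head (FH). A rule with fixed thresholds gave 2025 regions, and their number depends on these thresholds. They are called unannotated intergenic regions because they lie outside the genes of GENCODE M1, the annotation used. The regions were chosen by measured values, namely the number of distinct positions at which Ribo-Zero tags start. A 1-kb window of the mm9 autosomes more than 10 kb from any GENCODE M1 gene was kept when it held 20 or more such positions in the FH or the CCE Ribo-Zero library, and kept windows less than 2 kb apart were joined. Of 1133868 eligible windows 9340 were kept, and the joined regions cover 10082 kb. Ribo-Zero values of the regions are therefore a description, and the tests use the RiboMinus libraries, which took no part in the choice.

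CCE cells, of strain 129/SvEv, had LIF withdrawn and received 0.266 µM retinoic acid for 5 days. FH is the head of wild-type FVB/N fetuses at 14.5 dpc, a mixture of tissues that is mainly brain, and strain and tissue cannot be told apart. RiboMinus and Ribo-Zero are methods that remove ribosomal RNA. Of the 16 libraries 14 were RiboMinus and 2 were Ribo-Zero, 1 for each tissue and from other RNA. The RiboMinus libraries come from 7 cDNA preparations, each sequenced at Vienna and Nijmegen. CCE has 4, numbered 1 and 2 and either sheared or hydrolysed. FH has 3, FH1 sheared, FH1 hydrolysed and FH2 hydrolysed, the last after 2 rounds of depletion. By the paper both fragmentation methods were used on the same RiboMinus samples. Sheared and hydrolysed preparations of the same tissue and number therefore share RNA, and the 7 preparations are not independent. The preparations of a tissue are technical replicates, so p-values measure the spread between preparations. The tissue fit had no covariate, so this spread includes the difference between sheared and hydrolysed preparations. The tissues also differ in their share of sheared preparations, so fragmentation can enter the tissue difference. The hydrolysed numbers 1 and 2 may be crossed between the places. Across genes with at least 100 tags the log2 ratio of preparation 1 to 2 correlated between places with r = 0.61 for sheared CCE but -0.63 for hydrolysed CCE and -0.48 for hydrolysed FH. Each hydrolysed value below may therefore mix both preparations of its tissue. Values are given below in the order CCE1 sheared, CCE1 hydrolysed, CCE2 sheared, CCE2 hydrolysed, and FH1 sheared, FH1 hydrolysed, FH2 hydrolysed.

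RiboMinus libraries hold 920424 to 2473448 unique tags. The Ribo-Zero libraries hold 46226046 nuclear tags in FH and 26345467 in CCE, so that 20 start positions were easier to reach in FH. CPM is the count of unique tags scaled to the nuclear tags of a library or preparation. All 9 fetal head marker genes found were higher in FH, and 8 of 10 markers of extraembryonic endoderm were higher in CCE. All 6 markers of undifferentiated ES cells were also higher in CCE, where they summed to 90.6 to 99.4 CPM against 5.29 to 6.02 CPM in FH. The 4 blood genes summed to 658 to 989 CPM in FH and 2.22 to 6.54 CPM in CCE. The part of these cells in the differences below was not tested, and in bulk RNA fewer cells of a type and less RNA per cell cannot be told apart.

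RNA that has been depleted of ribosomal RNA, and not selected for poly(A), keeps unspliced precursors and non-polyadenylated transcripts. The introns of long genes and the primary transcripts of microRNAs then give tags along their whole length, and a gene whose annotation begins too far downstream leaves part of its transcript in apparently intergenic space. Many adhesion, guidance and synapse genes of the brain are very long. Genomes also hold processed pseudogenes, which are intronless copies of mRNAs that were reverse-transcribed and inserted elsewhere.

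The sequences below show what such regions contain, with mm9 coordinates and read 5′ to 3′ on the strand named. The first pair shows a copy of the coding sequence of Rpl4, a protein of the large ribosomal subunit, at chr1:144990856-144990975 on the minus strand, where 2803 CCE Ribo-Zero tags started. Capitals mark the 2 bases that differ from the gene.
copy of Rpl4: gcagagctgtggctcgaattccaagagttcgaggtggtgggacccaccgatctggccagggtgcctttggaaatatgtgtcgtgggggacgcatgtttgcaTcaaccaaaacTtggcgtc
Rpl4 coding sequence: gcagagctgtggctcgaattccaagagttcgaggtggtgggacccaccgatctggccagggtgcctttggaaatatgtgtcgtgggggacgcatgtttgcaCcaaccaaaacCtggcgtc
The second pair shows a copy of Tubb2b, a beta tubulin of neurons, at chr12:11889288-11889407 on the minus strand, where 4055 FH tags started. Capitals mark the 1 base that differs.
copy of Tubb2b: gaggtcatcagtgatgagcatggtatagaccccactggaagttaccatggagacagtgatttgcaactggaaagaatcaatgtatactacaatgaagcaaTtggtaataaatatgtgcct
Tubb2b coding sequence: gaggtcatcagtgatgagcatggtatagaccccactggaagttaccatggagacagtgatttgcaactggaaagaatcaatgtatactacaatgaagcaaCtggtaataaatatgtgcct

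The next sequences are starts that RefSeq gives to genes whose GENCODE M1 models begin far downstream, and long tracts of regions follow them. They belong to Lsamp, a neuronal cell adhesion protein, at chr16:39984227-39984526 and to B3galt1, a galactosyltransferase, at chr2:67403496-67403795, both on the plus strand. The letters are from RefSeq (GRCm38), and the mm9 positions come from an exact match at a single place. Capitals are the 50 bases from the start on. GC content was 53.0% for Lsamp with 12 CpG and 69.0% for B3galt1 with 26 CpG.
Lsamp RefSeq start: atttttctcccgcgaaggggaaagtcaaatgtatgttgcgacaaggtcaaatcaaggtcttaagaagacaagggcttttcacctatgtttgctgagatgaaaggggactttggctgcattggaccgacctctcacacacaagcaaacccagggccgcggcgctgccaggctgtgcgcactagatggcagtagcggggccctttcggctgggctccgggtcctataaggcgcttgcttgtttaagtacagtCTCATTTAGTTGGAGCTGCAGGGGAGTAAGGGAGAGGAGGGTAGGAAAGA
B3galt1 RefSeq start: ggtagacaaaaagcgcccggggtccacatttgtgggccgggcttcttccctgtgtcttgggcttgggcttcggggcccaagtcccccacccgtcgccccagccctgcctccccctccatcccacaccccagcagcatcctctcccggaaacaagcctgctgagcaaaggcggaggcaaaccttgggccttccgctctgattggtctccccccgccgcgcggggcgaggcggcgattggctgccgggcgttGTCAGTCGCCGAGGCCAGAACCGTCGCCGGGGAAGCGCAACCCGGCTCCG

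The last sequences come from regions with neither feature and are written as the plus strand, since tags carry no strand. Capitals are bases covered by RiboMinus tags of the tissue named. The stretch chr10:109653751-109653900, upstream of the neuron navigator gene Nav3, held 71 start positions of FH Ribo-Zero tags, and 139 of its bases were covered. The stretch chr2:168831781-168831930, near Gm9873, held 30 of CCE, and all of its 150 bases were covered. Each was covered by 20 RiboMinus tags.
region upstream of Nav3: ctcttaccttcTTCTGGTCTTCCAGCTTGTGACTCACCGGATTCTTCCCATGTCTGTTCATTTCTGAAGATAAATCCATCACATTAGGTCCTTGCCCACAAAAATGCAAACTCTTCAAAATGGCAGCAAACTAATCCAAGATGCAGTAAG
region near Gm9873: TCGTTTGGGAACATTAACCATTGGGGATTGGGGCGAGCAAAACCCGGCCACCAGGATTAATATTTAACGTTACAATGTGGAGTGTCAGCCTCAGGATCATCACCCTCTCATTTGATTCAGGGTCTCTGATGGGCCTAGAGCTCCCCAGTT

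Most of the length of the regions was chosen through FH, which follows from the Ribo-Zero values of the rule. Windows of FH alone made 1460 regions of 8281 kb, windows of both tissues 365 regions of 1462 kb, and windows of CCE alone 200 regions of 339 kb. With FH thinned to the depth of CCE, 1463 regions were found, of which 888 came from FH alone, 267 from CCE alone and 308 from both. The median length was 2 kb. Of the regions 970 were 1 kb long, 823 were 2 to 9 kb and 232 were 10 kb or longer, and these 232 held 6014 kb. The median ratio of Ribo-Zero CPM, FH to CCE, was 2.37 over 1361 regions with a CCE tag, and 664 regions had none.

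The regions were concentrated in few places. They lie in 830 gaps between neighbouring M1 genes, and 580 gaps hold 1 region. The 40 gaps with 50 kb or more of regions hold 670 regions and 6340 kb, or 62.9% of the length. Their RiboMinus tags numbered 43064 in FH and 3983 in CCE. In 39 of these gaps every FH preparation was above every CCE preparation, beside 24.6% of all regions and genes tested singly. The exception was a gap between Gm10051 and Gm15627. All 40 gaps were also higher in FH in the Ribo-Zero libraries that chose the windows, so that this count describes the gaps that passed.

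RiboMinus tags covered most regions. At least 3 tags of the same tissue, over all its RiboMinus libraries, were found in 1480 of 1825 regions kept through FH (81.1%) and in 518 of 565 kept through CCE (91.7%). No tag was found in 93 and 14 of them. The median ratio of RiboMinus to Ribo-Zero CPM in these regions was 0.58 in FH and 0.47 in CCE. Over genes with at least 20 Ribo-Zero tags it was 1.23 and 0.98. Ribo-Zero values chose the regions, so that these ratios are a description. The libraries also differ in tag length, 51 bases in Ribo-Zero and 35 in RiboMinus, which are the longer word lengths used below. Sequencing place and instrument differ too, and only RiboMinus includes sheared preparations. The ratios and shares therefore do not compare depletion methods alone. By window the shares were 73.9% of 8965 in FH and 85.9% of 1071 in CCE, while 0.498% and 0.198% of the eligible windows outside the regions reached 3 tags. Of regions of 10 kb or longer kept through FH, 230 of 231 were covered, and of 1-kb regions 63.8%. The same 3 tags were asked of every length, so that longer regions reach them more easily.

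Coverage was also taken at the threshold itself, here as at least 3 RiboMinus tags of either tissue. Of 147 regions whose best window had 20 start positions 56.5% were covered, and of 553 single windows outside with 19 positions 53.0%. A region can be longer than its best window, so that these shares are not of like units. The regions just inside were chr1:6427001-6428000 with 4 FH and 4 CCE RiboMinus tags, chr1:16889001-16891000 with none, and chr1:17655001-17656000 with 1 FH tag. The windows just outside were chr1:12692001-12693000 with 6 FH and 13 CCE tags, chr1:17632001-17633000 with 2 FH tags and chr1:41811001-41812000 with 6 FH tags.

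The kept windows were more often unique in sequence than the others, as the use of unique tags requires. Of their 51-base words 97.7% occur at a single place in the genome, against 81.3% outside, and of 35-base words 95.8% against 77.0%. Median GC content was 41.0% and 40.3%. The share of windows kept was 1.00% at 10 to 20 kb from a gene, 0.781% at 20 to 50 kb, 0.804% at 50 to 100 kb, 0.874% at 100 to 200 kb and 0.738% beyond, with no steady order. The median distance to the nearest gene was 50199 bp and the largest 975373 bp. The nearest gene is protein-coding for 1201 regions, and 1071 regions lie upstream of their nearest gene and 954 downstream.

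Regions higher in FH outnumbered those higher in CCE. The tissues were compared with limma over 1152 regions and 18037 genes that had at least 10 RiboMinus tags. FH was higher in 571 regions, where 23.9% of all 19189 features tested were called in this direction, and CCE in 130, where 23.9% of all features were. The median log2 difference, FH minus CCE, was 1.19 over the regions and -0.12 over all features. The preparations of the tissues did not overlap in 557 regions with FH higher (24.6% of all features) and in 140 with CCE higher (25.4%). The other 873 regions had too few tags. Since the choice of windows favoured FH, these counts describe the regions that passed. Regions in the same gap were counted singly and are not independent. Among the tested regions 256 had no CCE tag, so that they reached 10 tags through FH alone, and 242 of these were higher in FH. Another 29 had no FH tag, and 26 of these were higher in CCE. For such regions the direction was fixed by the filter. With size factors from the median of ratios the median over all features was 0.10 and the counts were 596 and 107. With fragmentation as a covariate the counts were 611 and 193. Of 231 tested regions of 10 kb or longer 210 were higher in FH and 6 in CCE, and of 322 of 1 kb 51 and 55.

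**Figure D1:**
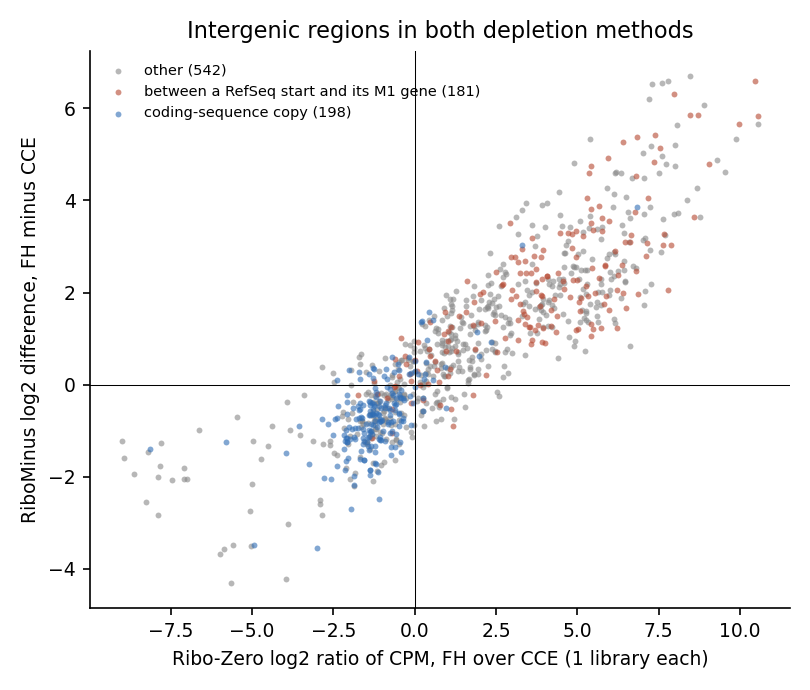
Each point is 1 of 921 intergenic regions tested in RiboMinus with tags in both Ribo-Zero libraries. The horizontal axis is the log2 ratio of Ribo-Zero CPM, FH over CCE, with 1 library each, and the vertical axis the RiboMinus log2 difference, FH minus CCE. The horizontal values come from the libraries that chose the regions, so the plot is a description and supports nothing. Pearson's r was 0.88 across regions, and 824 points have the same sign on both axes. Grey points are regions with no such feature, red points lie between a RefSeq start and its gene, and blue points are copies of coding sequences.

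The sequence and position of the regions set 3 classes apart. They were defined after the data had been seen, by sequence and annotation alone. A copy is a region with a window that holds at least 100 words of 24 bases of a single coding gene, and 233 regions are copies. Such windows made up 3.29% of kept windows and 1.13% of windows outside. Another 485 regions, of 3449 kb, lie between the RefSeq start of a gene and the M1 gene of that name, and 33.3% of kept windows lie in such stretches against 1.01% outside. The other 1307 regions, of 6256 kb, have neither feature. Of 276 tested regions behind a RefSeq start 212 were higher in FH and 2 in CCE, with a median log2 difference of 2.01. Many are pieces of the same tract and are not independent, and Lsamp alone gave 54 of the 212 and Rbfox1 29. Of 199 tested copies 7 were higher in FH and 60 in CCE, with a median of -0.72. Of 677 others 352 were higher in FH and 68 in CCE, with a median of 1.26. Beside these counts stand 23.9% of all features in each direction, and 49.6% of all tested regions higher in FH and 11.3% higher in CCE. No CCE tag was found in 109 of the 276, in none of the 199 and in 147 of the 677, which entered the test through FH alone. No FH tag was found in 4 of the 199 and in 25 of the 677, which entered it through CCE alone.

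The regions behind RefSeq starts belong to 68 genes, of which 31 had 10 kb or more of them. In the 10 kb before the start the median over the 31 genes was 3 RiboMinus FH tags, and in the 10 kb after it 55. Medians further downstream, to 100 kb, were 25 to 36 FH tags per 10 kb, and CCE medians after the start were 3 to 8. FH tags in the 50 kb after the start exceeded those in the 50 kb before it in 29 of 31 genes. The exceptions were Gatad2b, with 881 before and 431 after, and Usp29, with 2878 and 331. Next to the start of Usp29 lies Peg3, an imprinted zinc-finger gene. Snhg14 and Snrpn share a start and were each counted. With this start counted once the median was 4 tags before and 60 after, and 28 of 30 starts had more FH tags after. Since the genes were chosen for regions behind the start, this step is a description.

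**Figure D2:**
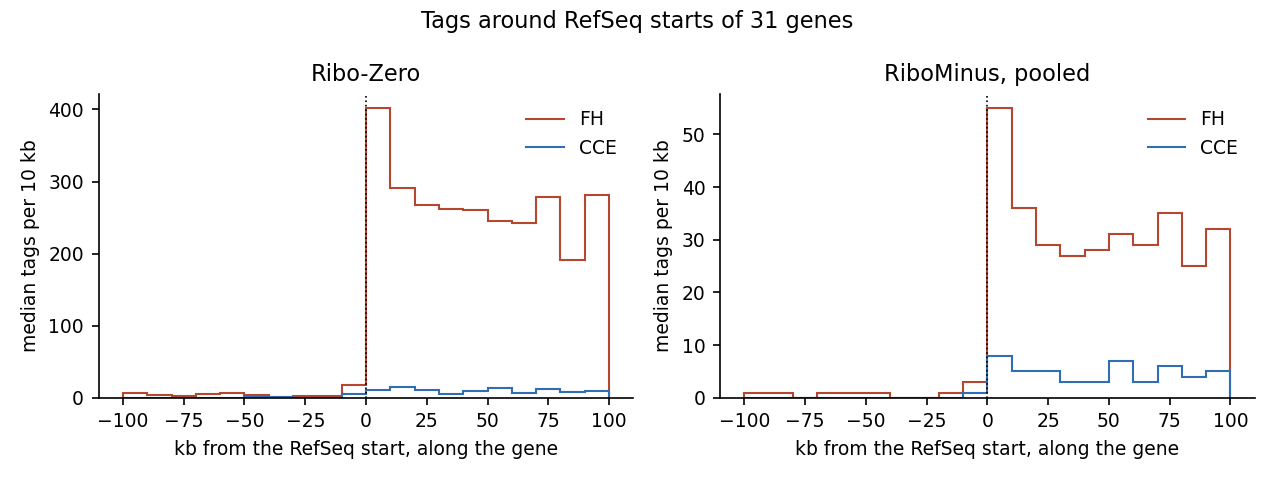
The median number of unique tags per 10-kb bin around the RefSeq start of 31 genes that have at least 10 kb of intergenic regions between this start and their M1 model, with the distance along the gene in kb on the horizontal axis. Ribo-Zero and pooled RiboMinus are shown apart, FH in red and CCE in blue. RiboMinus FH steps from 3 to 55 tags at the start, while RiboMinus CCE stays at or below 8.

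Lsamp had the longest of these tracts. Its RefSeq start lies 1548 kb upstream of the M1 gene, and 99 regions of 734 kb lie between. In the 50 kb before the start 1 RiboMinus FH tag was found and in the 50 kb after it 368. All regions together held 0, 1.00, 0 and 0.297 CPM in CCE and 233, 521 and 467 CPM in FH, so that the groups were far apart. Of 57 regions tested 54 were higher in FH, beside 23.9% of all features, but 53 of the 57 had no CCE tag and entered the test through FH alone, so that the filter fixed their direction. Of the 4 with a CCE tag 4 were higher in FH. The largest difference of all regions was that of chr16:40339001-40407000, with no tag in any CCE library and 34.9, 83.2 and 76.6 CPM in FH (log2 difference 6.93 ± 0.36 SE, adjusted p = 4.31e-07 by limma). This value depends on the pseudocount of 0.5 CPM and is no bound. The annotated exons of Lsamp differed by 4.84 ± 0.35 (adjusted p = 2.38e-06).

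Other genes had tracts of the same kind. Behind the start of Rbfox1, a neuronal splicing regulator, 51 regions of 581 kb held 7.37, 11.8, 9.98 and 6.83 CPM in CCE and 185, 344 and 294 CPM in FH. For B3galt1 29 regions of 286 kb held 17.7, 27.1, 15.2 and 31.8 CPM in CCE and 104, 183 and 178 CPM in FH. For Tmem178b, which M1 calls Gm5567, 15 regions of 162 kb held 0, 0.501, 1.11 and 1.49 CPM in CCE and 120, 156 and 149 CPM in FH. None of these groups overlapped. The tract of Tmem178b holds chr6:39821001-39837000, with no RiboMinus CCE tag and 61.4, 29.1 and 33.3 CPM in FH (6.31 ± 0.34, adjusted p = 5.44e-07). It entered the test through FH alone, so that the filter fixed its direction, and its value depends on the pseudocount of 0.5 CPM. The sheared FH preparation was the highest in this region, whereas it was the lowest of FH over each of these 4 tracts. Among the regions farthest from any gene were 4 in the Rbfox1 tract, of which chr16:6092001-6096000 was higher in FH (1.74 ± 0.31, adjusted p = 9.76e-04) with no CCE tag, so that it was tested through its FH tags alone and could not be tested without FH1 hydrolysed or FH2 hydrolysed. Another of the 4, chr16:6050001-6062000, passed the test (1.85 ± 0.52, adjusted p = 0.0137) but not without FH1 hydrolysed or FH2 hydrolysed (adjusted p up to 0.0630).

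In some genes the tract and the exons gave different values. Over 248 kb behind the start of Nav2, a neuron navigator, 9 regions held 0, 0.250, 0.370 and 0 CPM in CCE and 76.2, 132 and 140 CPM in FH. All 8 tested were higher in FH, beside 23.9% of all features and 49.6% of all tested regions. Of these 8 regions 7 had no CCE tag and so were tested through FH alone. The gap of this tract also holds RefSeq starts of LOC115486410 and 9130015G15Rik, which M1 does not name. Tags of these genes and of Nav2 were not told apart. The exons of Nav2 held 18.1, 32.6, 53.6 and 25.8 CPM in CCE and 72.5, 40.1 and 44.7 CPM in FH (0.74 ± 0.35, adjusted p = 0.109). These exon values overlap, and the difference between tract and exons was not tested. Behind the start of Sipa1l2 6 regions held 10.0, 25.8, 22.6 and 23.8 CPM in CCE and 18.5, 16.2 and 18.3 CPM in FH, and none of 5 tested passed. No region of Hdac4, Mical3 or Sh3d19 passed either. Snhg14 hosts small nucleolar RNAs of an imprinted cluster. Its 13 regions of 70 kb held 0.670, 0, 0 and 0.297 CPM in CCE and 22.8, 48.2 and 46.3 CPM in FH. All 5 tested were higher in FH, beside the same shares of 23.9% and 49.6%, and 3 of the 5 had no CCE tag.

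**Figure D3:**
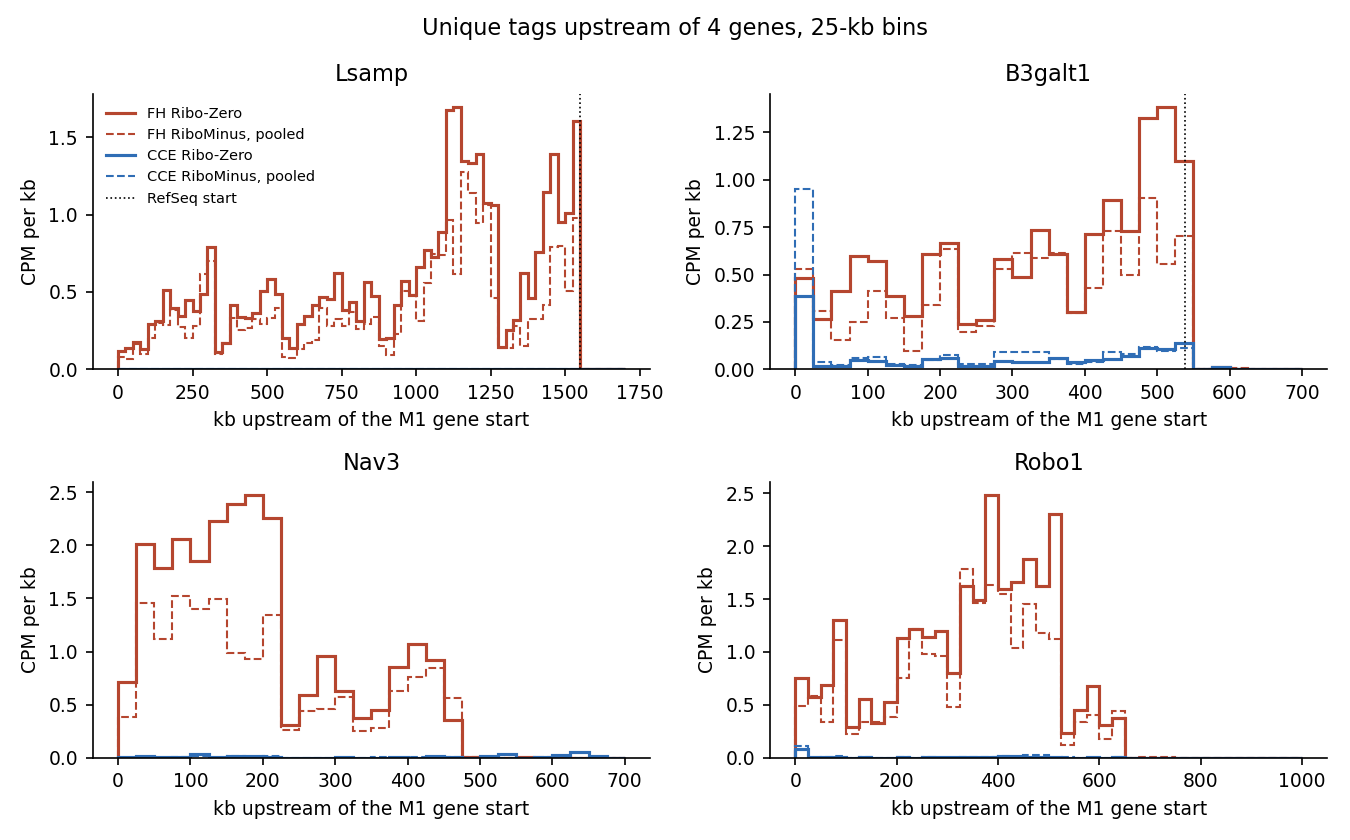
Unique tags upstream of 4 genes in 25-kb bins, as CPM per kb, against the distance in kb upstream of the M1 gene. Ribo-Zero and pooled RiboMinus are drawn as separate lines for FH (red) and CCE (blue), and a dotted line marks the RefSeq start where one was placed within or beyond the tract. FH tags end at the RefSeq starts of Lsamp, 1548 kb upstream, and B3galt1, 539 kb upstream. They end at about 475 kb for Nav3 and 650 kb for Robo1, which had no start of their own placed within or beyond the tract.

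Tracts also lie upstream of genes that had no RefSeq start of their own placed within or beyond the tract. Of all regions 1087, of 5551 kb, lie in a gap that holds the RefSeq start of a gene M1 does not name. In the gap of the Robo1 tract these are 8030451O07Rik and Gm29908, and in that of the Nav3 tract 9230102K24Rik and Gm36751. Tags of such a gene and of Robo1 or Nav3 were not told apart. Such starts also lie in gaps of other tracts, among them those of Lsamp, Rbfox1 and Nav2, where tags were not told apart either. Upstream of Robo1, a receptor of Slit guidance proteins, 25 regions of 472 kb held 4.35, 7.01, 2.22 and 4.75 CPM in CCE and 271, 539 and 529 CPM in FH. All 19 tested were higher in FH, beside 23.9% of all features and 49.6% of all tested regions, and 8 of the 19 had no CCE tag. The signal ended abruptly, with 110 RiboMinus FH tags in the last 25-kb bin before 650 kb from the gene and 0 in the next. The exons of Robo1 held 161, 184, 236 and 198 CPM in CCE and 256, 191 and 210 CPM in FH (0.17 ± 0.20, adjusted p = 0.505), and these values overlap. The difference between the tract and the exons was not tested. Within the tract, chr16:72348001-72453000 held 1.00, 0, 0 and 0.594 CPM in CCE and 50.3, 106 and 106 CPM in FH (6.70 ± 0.47, adjusted p = 2.21e-06). The small regions chr16:72490001-72492000 and chr16:72631001-72633000 passed the test (adjusted p = 0.0442 and 0.0499) with no CCE tag and 12 and 11 FH tags. Each call was lost without any one CCE preparation (adjusted p up to 0.0968), and neither could be tested without FH1 hydrolysed or FH2 hydrolysed.

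Upstream of Nav3 15 regions of 349 kb held 3.68, 2.00, 0.370 and 3.86 CPM in CCE and 203, 433 and 393 CPM in FH. Of 13 tested 12 were higher in FH, beside 23.9% of all features and 49.6% of all tested regions, while 8 of the 13 had no CCE tag. FH tags fell from 139 at 450 to 475 kb to 1 at 475 to 500 kb. Here the exons also differed, with 0.739 to 1.34 CPM in CCE and 33.9 to 36.6 CPM in FH (4.48 ± 0.28, adjusted p = 1.11e-06). The region chr10:109548001-109655000, which contains the sequence shown above, held 2.34, 1.00, 0 and 1.19 CPM in CCE and 75.7, 175 and 154 CPM in FH (6.53 ± 0.54, adjusted p = 5.94e-06). Beside Slitrk1, a synaptic membrane protein, 143 kb of regions had at most 0.370 CPM in a CCE preparation and 41.3, 102 and 91.2 CPM in FH.

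The longest region spans 115 kb at chr4:141913001-142028000, near Gm13052. It held 6.03, 12.3, 9.98 and 14.3 CPM in CCE and 83.7, 130 and 134 CPM in FH (3.42 ± 0.31, adjusted p = 1.03e-05). A region of 90 kb near Dpyd, an enzyme of pyrimidine breakdown, at chr3:118148001-118238000, held 0.670, 0.751, 1.11 and 1.49 CPM in CCE and 64.1, 128 and 118 CPM in FH (6.08 ± 0.33, adjusted p = 5.59e-07). A region of 52 kb at chr16:77657001-77709000, downstream of the microRNA gene Mir125b-2, held 5.69, 12.3, 3.70 and 14.6 CPM in CCE and 62.5, 141 and 127 CPM in FH (3.63 ± 0.46, adjusted p = 1.04e-04). In each of them the tissues did not overlap and the sheared FH preparation was the lowest of FH. A smaller gap between tissues was seen in 157 kb beside Odz3, a teneurin, with 25.1 to 72.2 CPM in CCE and 88.4 to 152 CPM in FH.

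**Figure D4:**
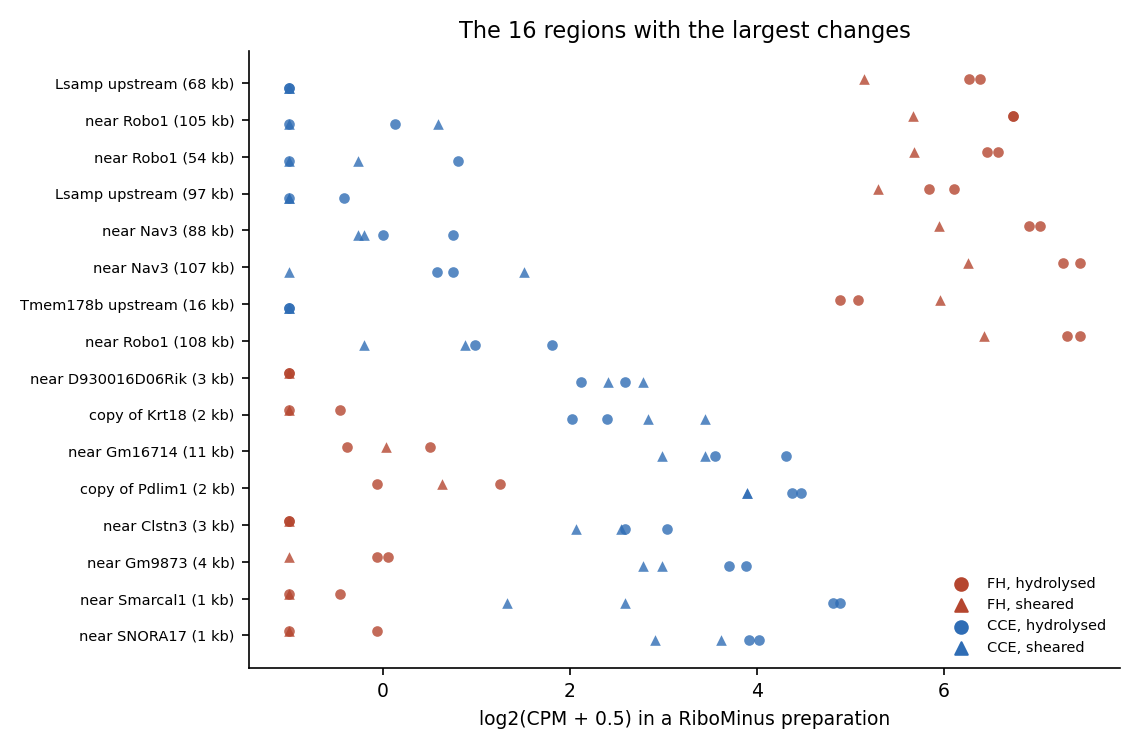
log2(CPM + 0.5) in each RiboMinus preparation for the 8 regions with the largest difference in each direction among those that passed the test without overlap of the tissues. FH is red and CCE blue, circles are hydrolysed and triangles sheared preparations, and -1 means no tag. The regions higher in FH are 16 to 108 kb long and those higher in CCE 1 to 11 kb.

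The regions with the largest difference towards CCE were short. The first, chr1:110894001-110895000, lies 624584 bp from its nearest gene and held 11.7, 15.8, 7.02 and 14.6 CPM in CCE and 0, 0 and 0.463 CPM in FH (-4.30 ± 0.39, adjusted p = 1.17e-05). In chr1:72610001-72611000, upstream of the DNA annealing helicase gene Smarcal1, CCE held 2.01, 27.6, 5.55 and 29.1 CPM and FH 0, 0 and 0.231 CPM (-4.22 ± 0.78, adjusted p = 0.00128). Here the hydrolysed CCE preparations were far above the sheared ones, yet all were above FH. The longest, of 11 kb, was chr5:67855001-67866000 near Bend4, with 10.4, 11.3, 7.39 and 19.3 CPM in CCE and 0.529, 0.269 and 0.925 CPM in FH (-3.51 ± 0.39, adjusted p = 3.96e-05), and the exons of Bend4 were also higher in CCE (-2.73 ± 0.22, adjusted p = 4.61e-06). The region near Gm9873 whose sequence is shown above held 6.36, 12.5, 7.39 and 14.3 CPM in CCE and 0, 0.539 and 0.463 CPM in FH (-3.67 ± 0.41, adjusted p = 4.32e-05).

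Near Clstn3, a calsyntenin of synapses, chr6:124427001-124430000 held 3.70 to 7.72 CPM in CCE and none in FH (-3.56 ± 0.34, adjusted p = 1.36e-05). With no FH tag this region entered the test through CCE alone, so that the filter fixed its direction. The exons of Clstn3 were higher in FH (1.30 ± 0.21, adjusted p = 6.10e-04), and the difference between region and exons was not tested. The regions with most CCE start positions were found in both tissues. In chr7:82913001-82926000, near the kinase anchor gene Akap13, CCE held 39.2, 83.7, 45.8 and 82.9 CPM and FH 18.0, 29.9 and 27.5 CPM (-1.26 ± 0.32, adjusted p = 0.00800). In chr7:6694001-6724000, next to Peg3 and behind the RefSeq start of Usp29, CCE held 20.1, 43.6, 28.5 and 45.2 CPM and FH 10.6, 17.5 and 19.4 CPM (-1.06 ± 0.33, adjusted p = 0.0225). This call was lost without CCE1 hydrolysed, CCE2 hydrolysed or FH1 sheared (adjusted p up to 0.0940). The exons of Peg3 were higher in CCE (-1.98 ± 0.33, adjusted p = 6.07e-04). Those of Usp29 differed by 1.46 ± 0.66 (adjusted p = 0.0909), and tags of Peg3 and Usp29 in this region were not told apart. In chr7:80697001-80705000, upstream of the chromatin remodeller Chd2, FH held 26.5, 22.3 and 20.4 CPM and CCE 17.4, 15.8, 16.6 and 14.3 CPM, which do not overlap but missed the threshold (0.51 ± 0.21, adjusted p = 0.0745). In that gap RefSeq has the non-coding RNA gene Chaserr, which M1 does not name.

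Copies of coding sequences were short and 177 of 233 were kept through both tissues. They come from 227 genes, 228 are at most 3 kb long, and 224 contain words that span an exon junction of the gene. Median identity to the mRNA was 94.9% over a median of 955 aligned bases. Of their 51-base words 83.7% and of their 35-base words 74.4% are unique. The median copy had 14.1% of the Ribo-Zero tags of its gene in FH and 17.4% in CCE, and 33 copies had more tags than the gene. Mismatches were allowed in the alignment, so tags of a gene and of its near-identical copy can be confused. Tags across splice junctions were not mapped, so an mRNA tag that spans a junction cannot align at the gene but can align at an intronless copy. The counts of copy and gene are therefore uncertain, also for the 33, and do not show that a copy is transcribed. The share of such tags was not measured.

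The tissue difference of a copy resembled that of the gene copied. The copy of Rpl4 held 235, 173, 166 and 168 CPM in CCE and 73.6, 65.4 and 63.4 CPM in FH (-1.44 ± 0.19, adjusted p = 1.60e-04), and the gene differed by -1.31. The copy of Tubb2b held 21.8, 11.3, 17.0 and 10.4 CPM in CCE and 124, 128 and 114 CPM in FH (3.03 ± 0.27), and the gene differed by 3.05. Neither copy had overlapping groups. The copy of Krt18, a keratin of simple epithelia, held 10.4, 4.76, 6.65 and 3.56 CPM in CCE and 0, 0 and 0.231 CPM in FH (-3.49 ± 0.40), and the gene differed by -5.74. The copy of Zfp42, a marker of undifferentiated ES cells, had 55 RiboMinus tags in CCE and 0 in FH. A copy of the glutathione peroxidase gene Gpx4 had an identity of 99.7% and more Ribo-Zero tags than the gene, 642 against 131 in FH and 1569 against 216 in CCE. Across 197 copies Pearson's r between copy and gene was 0.74 and Spearman's rho 0.69, and 166 had the same sign. With the nearest coding gene r was 0.06 across 134 copies. The points share libraries, and copy and gene may share tags.

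**Figure D5:**
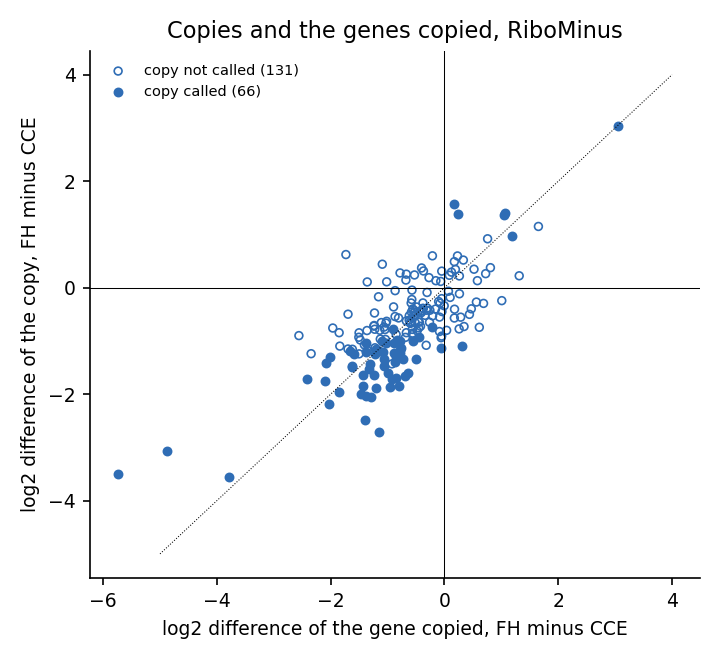
The RiboMinus log2 difference, FH minus CCE, of 197 coding-sequence copies on the vertical axis against that of the gene copied on the horizontal axis. Filled points passed the test (66) and open points did not (131), and a line marks equal values. The copy of Tubb2b lies at 3.03 and its gene at 3.05, and the copy of Krt18 at -3.49 and its gene at -5.74.

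Regions other than copies were set beside their nearest coding gene. The log2 differences had the same sign for 135 of 198 regions within 20 kb, 167 of 245 at 20 to 100 kb and 236 of 320 beyond 100 kb. Pearson's r was 0.50, 0.39 and 0.14 across these regions, and the difference between the values of r was not tested. The regions share libraries and often a gene. With 1 region per gene r was 0.30 over 370 genes, and 230 had the same sign. Of 564 such regions higher in FH 438 had a tested coding gene, which was higher in FH for 258 and higher in CCE for 41. These regions have only 154 such genes, of which 74 were higher in FH and 16 in CCE. Of 70 higher in CCE 62 had a tested gene, which was higher in CCE for 25 and higher in FH for 19. By gene these were 19 and 19 of 56. Of all 14808 protein-coding genes tested on these chromosomes 23.3% were higher in FH and 26.5% in CCE.

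Genes of known function near the regions were examined by list. Of all 34653 M1 genes on the chromosomes with regions 920 (2.65%) were the nearest gene of a region, and of 21418 protein-coding genes 601 (2.81%). Of 72 neural and head transcription factors 13 were the nearest gene of 38 regions, and of 13 regions tested 8 were higher in FH and 1 in CCE, with a median log2 difference of 1.77 against 1.19 over all tested regions. Of all tested regions 49.6% were higher in FH and 11.3% in CCE, and the counts of each list stand beside these shares and the 23.9% of all features in either direction. Downstream of Pou3f3, a POU factor of the nervous system, chr1:42768001-42771000 held 0.335, 0, 0 and 0.297 CPM in CCE and 4.77, 4.04 and 4.16 CPM in FH (2.91 ± 0.34, adjusted p = 6.29e-05). The zinc-finger genes Zic1 and Zic4 were nearest to 15 regions, and the 3 tested were higher in FH. They had no CCE tag and 14 to 23 FH tags, so that the filter fixed this direction, and each could not be tested without at least 1 FH preparation. Near Nkx2-1, a factor of the ventral forebrain, chr12:57605001-57607000 held no CCE tag and 1.06, 2.42 and 2.31 CPM in FH (2.23 ± 0.34, adjusted p = 3.73e-04). These levels were low. With no CCE tag the region near Nkx2-1 entered the test through FH alone, so that the filter fixed its direction. Downstream of Twist1, a factor of head mesenchyme, chr12:34655001-34660000 was higher in FH (2.14 ± 0.46, adjusted p = 0.00316), and the exons of Twist1 differed by -0.08 ± 0.28 (adjusted p = 0.831). The region higher in CCE, chr13:71762001-71763000, lies 332679 bp from Irx1 (-1.31 ± 0.30, adjusted p = 0.00461), and Irx1 itself was higher in FH (4.46 ± 0.33, adjusted p = 3.08e-06).

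Of 42 genes of neuronal adhesion, guidance and synapse 8 were nearest to 26 regions. Of 17 tested 13 were higher in FH and 3 in CCE, with a median of 2.71, and 12 of the 13 were near Robo1. Of the 3 higher in CCE, chr5:12354001-12356000 near Sema3d held 0.670, 0.751, 0.370 and 1.19 CPM in CCE and none in FH (-1.28 ± 0.33, adjusted p = 0.00950). These CCE values are 10 tags in all, and with any CCE preparation left out it could not be tested. Another near Unc5d is a copy of Nudc, and that near Pcdh17 a copy of Smarcc1. The call of the Nudc copy was lost without CCE1 hydrolysed, CCE2 hydrolysed or FH1 sheared (adjusted p up to 0.0712). That of the Smarcc1 copy was lost without CCE1 sheared, CCE1 hydrolysed, CCE2 sheared, FH1 hydrolysed or FH2 hydrolysed (adjusted p up to 0.0860). Robo2 is listed but was nearest to no region, since smaller M1 genes lie closer. Behind its RefSeq start lie 27 regions of 103 kb, and of 14 tested 13 were higher in FH, beside 23.9% of all features. These regions held at most 0.891 CPM in a CCE preparation, so they were tested mainly through FH. Of 16 genes of the retinoic acid response 2 were nearest to 13 regions, and of 7 tested 5 were higher in FH and none in CCE, with a median of 1.41. These 5 lie upstream of the retinoic acid receptor gene Rarb. They held 11 to 18 FH tags and at most 1 CCE tag, so that they entered the test through FH. The largest difference was that of chr14:17986001-17991000 with no CCE tag and 2.12, 2.42 and 1.16 CPM in FH (2.22 ± 0.33, adjusted p = 3.01e-04). That of chr14:17887001-17889000 (adjusted p = 0.0499) was lost without any CCE preparation (adjusted p up to 0.0968). The exons of Rarb were higher in CCE (-0.86 ± 0.19, adjusted p = 0.00409). Of 39 imprinted genes 5 were nearest to 5 regions, and of 2 tested 1 was higher in CCE, with a median of -0.42. Snrpn is listed but was nearest to none, while 6 regions of 13 kb lie behind its RefSeq start. The 1 tested of these was higher in FH, with no CCE tag, so that the filter fixed its direction. None of 35 genes of extraembryonic endoderm and none of 15 pluripotency genes was the nearest gene of a region, where 2.65% of all genes were, so that lists of this size can hold none.

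A single window held most RiboMinus tags. In chr8:15519001-15520000, 100355 bp from its nearest gene, 85522 FH and 235856 CCE tags were counted, or 51.5% and 82.4% of the RiboMinus tags of all regions. The CCE preparations held 20951, 19781, 9920 and 20048 CPM and the FH preparations 9190, 6996 and 9760 CPM. The groups did not overlap, but the lowest CCE value was close to the highest of FH (-0.98 ± 0.35, adjusted p = 0.0406), and the call was lost without CCE1 sheared, CCE1 hydrolysed, CCE2 hydrolysed or any FH preparation (adjusted p up to 0.201). In Ribo-Zero the window had 1142 FH tags at 23 start positions and 9311 CCE tags at 39. The share of tags in regions was 1.33% to 2.44% in CCE and 1.49% to 1.82% in FH, which overlap. Without this window it was 0.333% to 0.425% in CCE and 0.572% to 0.890% in FH, which do not.

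The gap between Gm10051 and Gm15627 stood out in the other direction. Its 11 regions of 67 kb held 2287 FH and 4 CCE tags in Ribo-Zero but 1 FH tag and no CCE tag in RiboMinus. Of their words of 51 and 35 bases 99.0% and 97.4% are unique. The Ribo-Zero RNA was another sample, and the cause was not tested. Fragmentation was compared over the 7 preparations with tissue as a covariate, and sequencing place over the 14 libraries with preparation as a covariate. The RNA that sheared and hydrolysed preparations share was not modelled. Hydrolysed preparations were higher in 170 of the 1152 regions (20.4% of all features) and sheared ones in 18 (12.7%). Tags of Vienna were higher in 1 region (0.255% of all features) and those of Nijmegen in 2 (0.375%). The place test used the labelled preparation numbers and was not repeated with the hydrolysed numbers crossed. If the labels are crossed, differences between preparations enter its spread.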

How the data were processed

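RNA depleted of ribosomal RNA from CCE and FH was sequenced as unstranded tags. The authors aligned tags to mm9 with Bowtie, kept those with a unique place and deposited 1 line per tag, so that the number of lines in a window is a tag count. Tags across splice junctions were not mapped, and the aligner version is not given in the sources used here. The 8 samples of extra lanes and combined tags were not used. Regions were built from the 2 Ribo-Zero files by the rule given at the start of the report. Tags of both places were summed by preparation. They were placed by start position in regions and by midpoint in the exons of genes. Counts were scaled to CPM of nuclear tags and tested on log2(CPM + 0.5) with limma 3.58.1 (trend, R 4.3.3) for regions and genes with at least 10 tags. The test was two-sided and without covariates, with Benjamini-Hochberg adjustment at 0.05. Fold changes on this scale understate those of low features. On simulated counts over 19189 features 188 of 200 changed 4-fold were recovered and 9 unchanged ones called. The changed features were drawn only from those well above the filter of 10 tags, and no fragmentation difference was simulated. Recovery of features near 10 tags was therefore not measured. Fragmentation was tested with tissue as a covariate and place, over the 14 libraries, with preparation as a covariate. Intervals are 95% exact and cover counting error only.

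Words of 24, 35 and 51 bases were counted in mm9, and identity of copies was taken from blastn 2.17.0. RefSeq promoters of 300 bases (32851, of which 31872 matched mm9 exactly at a single place) were used for starts up to 3 Mb from the M1 gene of that name or synonym. Other steps used numba 0.67.0, samtools 1.23.1, scipy 1.17.1, pandas 2.3.3, numpy 2.4.6, matplotlib 3.10.9 and Python 3.11.15. The members and gene lists were chosen with earlier results of these data known, and the copy and RefSeq classes after the data had been seen. Named regions are the 8 with most start positions in each tissue, the 5 longest, the 8 with the largest called difference in each direction without overlap, the 5 farthest from a gene with at least 3 RiboMinus tags, the 3 on either side of the threshold, and those nearest to a listed gene. Gaps, RefSeq tracts, copies and single windows outside this rule were named after their values were seen. Alternatives covered the window rule, pseudocount, filters, scaling, voom, repeated positions, places, fragmentation, a replicate block and each preparation left out.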

Additional observations from a re-analysis of the deposited data

Results flagged for a closer look

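In 3 of 23 sets of values of the 4 CCE preparations the lowest value stood apart from the others by Dixon's criterion, which chance meets in about 5 percent of groups. CCE1 sheared had 4.69 CPM in the copy of Acaca at chr12:10159001-10165000, below the 8.13 to 8.32 CPM of the other CCE preparations. CCE2 sheared had 9920 CPM in the window with most RiboMinus tags, below 19781 to 20951 CPM in the others. For the same preparation the share of tags in regions was 1.33%, the lowest of CCE, and this share is mostly that of the same window.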

How the results depend on the processing

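The number of regions was 3823 with 10 start positions, 1309 with 30, 696 with 50 and 1057 beyond 50 kb from any gene, against 2025. Regions higher in FH numbered 316 with at least 30 tags and 319 with Nijmegen tags alone, against 571, and regions higher in CCE 70 with Nijmegen tags alone and 70 without copies, against 130. With fragmentation as a covariate they were 611 and 193. Regions higher at Vienna were 3 with a pseudocount of 1 and 3 with voom, against 1. Regions covered in FH were 906 with at least 10 tags and 561 with sheared preparations alone, against 1480, and those covered in CCE 311 without copies, against 518. Copies numbered 148 with at least 200 words, against 233. The variants without copies and with other word numbers were added after the data had been seen. Leaving out each preparation in turn gave 405 to 582 regions higher in FH, 91 to 130 higher in CCE, 1235 to 1435 covered in FH and 488 to 506 covered in CCE.

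The preparation numbers are not a pairing, since deviations followed fragmentation (r = 0.62 for CCE1 hydrolysed with FH1 hydrolysed and also with FH2 hydrolysed, and -0.68 for CCE1 sheared with CCE1 hydrolysed). With the preparation number as a replicate block 560 regions were higher in FH and 118 in CCE. With the hydrolysed numbers crossed at Nijmegen they were 575 and 131.

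For 65 named regions 1282 values were recomputed, and 1211 kept their direction and their side of the threshold, 50 lost the call, 14 gained it and 7 changed sign. The sign changes were in regions that had not passed the test. That of chr12:10159001-10165000 moved from -0.11 to 0.12 with the median of ratios, 0.15 with Vienna tags alone and 0.031 without FH1 sheared, with a range of -0.30 to 0.031 when each preparation was left out. That of chr12:111558001-111559000 moved from 0.22 to -0.065 with Vienna tags alone. That of chr15:32717001-32721000 moved from 0.17 to -0.076 with fragmentation as a covariate, -0.17 without CCE1 sheared and -0.27 without FH1 hydrolysed, within a range of -0.27 to 0.77. The call of chr13:71762001-71763000 near Irx1 was lost with Vienna tags alone (-1.05). Causes were not tested. Depth limits the test to 1152 of 2025 regions.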
